A study of Mus musculus with 24 samples.

Results

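The S100 proteins and galectins described here are 9 mouse genes, S100a1, S100a4, S100a6, S100a8, S100a9, S100a10, S100a11, Lgals1 and Lgals3, followed across CD11c-positive cells of the mesenteric lymph node. They were chosen by name after earlier results of the same data, and S100a9 in particular was selected on its lower level in Myd88 knockout when the bacterium LGG was added to anti-PD-1. The deposited table lists 12767 genes, among them 8 of these 9, and all 8 passed the filter on low values (a mean of at least 10 normalised counts). S100a4 was not analysed here. S100 proteins are small calcium-binding proteins with EF-hand motifs that act inside cells on target proteins and, once released, on receptors. S100a8 and S100a9 pair to form calprotectin, an abundant protein of neutrophils and monocytes that binds metal ions and signals as an alarmin. Galectins bind beta-galactoside sugars on glycoproteins, and galectin-3 (Lgals3) is abundant in macrophages and related myeloid cells.

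RNA sequencing covered 24 libraries in 8 groups of 3. The mice were C57BL/6, labelled female and aged 6 to 8 weeks, either wild type or Myd88 knockout. Myd88 encodes an adaptor of most Toll-like receptors and of interleukin-1 receptors. Every mouse, controls included, carried a subcutaneous tumour grown from 1000000 MC38 cells, a mouse colon carcinoma line. Mice were pooled and allotted at random when tumours averaged 100 mm3, on days 7 to 10. Within each genotype the groups were IgG control antibody, anti-PD-1 antibody, live LGG by mouth, and anti-PD-1 antibody plus live LGG, called the combination below. LGG is a probiotic strain of Lactobacillus, and PD-1 is an inhibitory receptor of T cells. Antibody (200 ug per mouse) and bacteria were given 2 times per week for 2 to 3 weeks, by injection into the abdomen and by mouth. For LGG alone no antibody is recorded, a further difference from the IgG groups. The cells came off CD11c MicroBeads, an enrichment on a protein that dendritic cells share with some macrophages and other leukocytes. Whether replicates are separate animals is not stated, so p-values here reflect only the spread among these samples, which may be technical. In such bulk samples, fewer cells of a type and less RNA per cell cannot be told apart.

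Of the 8 genes, 6 lie on chromosome 3 within 90511034 to 93564643 of build GRCm38. S100a8 (plus strand, 90668978 to 90670035) and S100a9 (minus strand, 90692632 to 90695721) are separated by 22596 bases, and S100a11 (93520488 to 93526287) and S100a10 (93555080 to 93564643) by 28792 bases on the plus strand. S100a1 spans 90511034 to 90514392 on the minus strand and S100a6 spans 90612882 to 90624181 on the plus strand. Lgals1 lies on chromosome 15 at 78926725 to 78930465 and Lgals3 on chromosome 14 at 47367751 to 47386160. No other annotated gene overlaps any of the 8. RefSeq promoter windows on GRCm38.p6 were matched by symbol for 6 of the 8. The following windows of 250 bases end where the RefSeq transcript starts. For S100a8 and S100a11 that start lies inside the gene span given above, so the last bases of those windows overlap the span. Windows are shown for 3 S100 genes because the results turn on them: S100a9 fell and S100a11 rose with LGG in wild type, and S100a8 encodes the partner of S100a9. Capitals mark letter matches on either strand.
S100a8 promoter, chr3:90668821-90669070 (plus strand): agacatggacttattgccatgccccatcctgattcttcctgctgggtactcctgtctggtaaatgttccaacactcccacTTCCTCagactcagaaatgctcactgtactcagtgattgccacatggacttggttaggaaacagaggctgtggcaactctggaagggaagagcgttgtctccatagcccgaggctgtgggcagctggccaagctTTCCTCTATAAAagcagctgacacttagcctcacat
S100a9 promoter, chr3:90695722-90695971 (minus strand): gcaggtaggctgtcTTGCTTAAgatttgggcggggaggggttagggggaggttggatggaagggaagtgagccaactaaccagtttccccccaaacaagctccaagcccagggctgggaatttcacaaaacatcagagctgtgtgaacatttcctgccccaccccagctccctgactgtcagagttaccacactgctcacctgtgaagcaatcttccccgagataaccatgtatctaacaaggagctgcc
S100a11 promoter, chr3:93520246-93520495 (plus strand): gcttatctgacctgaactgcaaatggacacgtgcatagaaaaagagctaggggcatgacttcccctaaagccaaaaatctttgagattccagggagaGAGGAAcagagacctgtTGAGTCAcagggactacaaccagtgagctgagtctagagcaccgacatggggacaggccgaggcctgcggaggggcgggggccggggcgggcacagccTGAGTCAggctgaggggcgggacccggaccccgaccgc
The patterns searched on both strands were TTNNGCAA (a C/EBP-type motif), an AP-1-type motif (TGA, any base, TCA), GAAANNGAA (interferon response-type), GGANTTTCC (NF-kB-type) and GAGGAA (PU.1-type). The core promoter element with the letters TATAAA was searched in the same way. Among 32851 windows of the same length, these letters occurred in 9.56%, 6.75%, 7.13%, 1.07%, 23.3% and 12.4%, in that order. The S100a8 window held 2 matches to GAGGAA, at -170 and -36 from the RefSeq start, and 1 to the core promoter element at -30, which abuts the nearer of those matches without overlapping it. The matches at -36 and -30 lie inside the S100a8 span given above. In the S100a9 window there was 1 match to TTNNGCAA, at -236. The S100a11 window held 2 AP-1-type matches, at -136 and -38, and 1 to GAGGAA at -153, with no overlap. These matches describe letters in a window and do not show that a factor binds there.

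Several facts about the libraries bear on what follows. The 4 Y-linked genes Ddx3y, Eif2s3y, Kdm5d and Uty summed to 0.94 to 10.4 normalised counts per library in wild type. In the 12 libraries labelled knockout the sum was 3060 to 4857, although all mice are labelled female. Genotype and this difference cannot be told apart. Myd88 itself was counted at 1723 to 2232 in wild type and 697 to 1837 in libraries labelled knockout, and a whole-gene count would not reveal the loss of an exon. Of 15 dendritic cell markers, 14 were listed, all with reads in every group, and they summed to 200552 to 444587 per library. Macrophage, monocyte, T cell and NK cell markers were present beside them. The dendritic cell sum is mostly Cd74, H2-Ab1 and H2-Aa, with means of 107770, 42276 and 32047 in wild-type IgG, where the mean sum was 244900. Along the second principal component, 3 knockout libraries lay away from the rest of their groups. These were anti-PD-1 replicates 2 and 3 (scores of -16.5 and 51.3) and LGG replicate 2 (46.0). The tests share 1 estimate of the spread over all 24 libraries, and the standard error of the S100a8 difference between LGG and IgG in wild type was 0.37 with these 3 and 0.12 without them. Counts without them are therefore given beside the counts with them. Without them knockout anti-PD-1 keeps 1 library, whose spread is then assumed to be like that of the other groups. Reads per library ranged from 24531528 to 49272593.

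Levels between genes were compared as normalised counts per kilobase of exon. Lgals3 had the highest level of the 8 in every group, and S100a8 and S100a9 the lowest pair. In wild-type IgG the level per kilobase was 73500.4 ± 5631 (SD, n = 3) for Lgals3, 18099.5 ± 1856 for Lgals1, 11333 ± 855 for S100a11 and 6938 ± 469.7 for S100a10, the light chain that binds annexin A2. S100a1 followed at 6434 ± 469, S100a6, which is also called calcyclin, at 4430.4 ± 236, S100a9 at 553 ± 41.2 and S100a8 at 389.8 ± 52.9. S100a10 and S100a1 are neighbours in that order whose means differ by little more than 1 SD. S100a9 exceeded S100a8 per kilobase only in the wild-type groups without LGG. With LGG in wild type, S100a11 stood above Lgals1, at 33904 ± 2342 against 14633 ± 781 per kilobase.

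Across the 8 groups, the highest S100a9 group mean (wild-type IgG) was 30.9 times the lowest (knockout combination). The knockout combination and knockout anti-PD-1 values are those that selected S100a9, so this range is a description. Its order from low to high was knockout combination, knockout LGG, wild-type combination, wild-type LGG, knockout IgG, knockout anti-PD-1, wild-type anti-PD-1 and wild-type IgG. Libraries of neighbours overlapped except between knockout LGG and wild-type combination and at the last steps, to wild-type anti-PD-1 and to wild-type IgG. S100a8 varied 3.57-fold, from knockout combination to wild-type combination, and its neighbours overlapped except between wild-type IgG and wild-type LGG. S100a10 varied 1.97-fold. For Lgals3, Lgals1, S100a1 and S100a6 the 4 knockout groups all had higher means than the 4 wild-type groups.

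**Figure D1:**
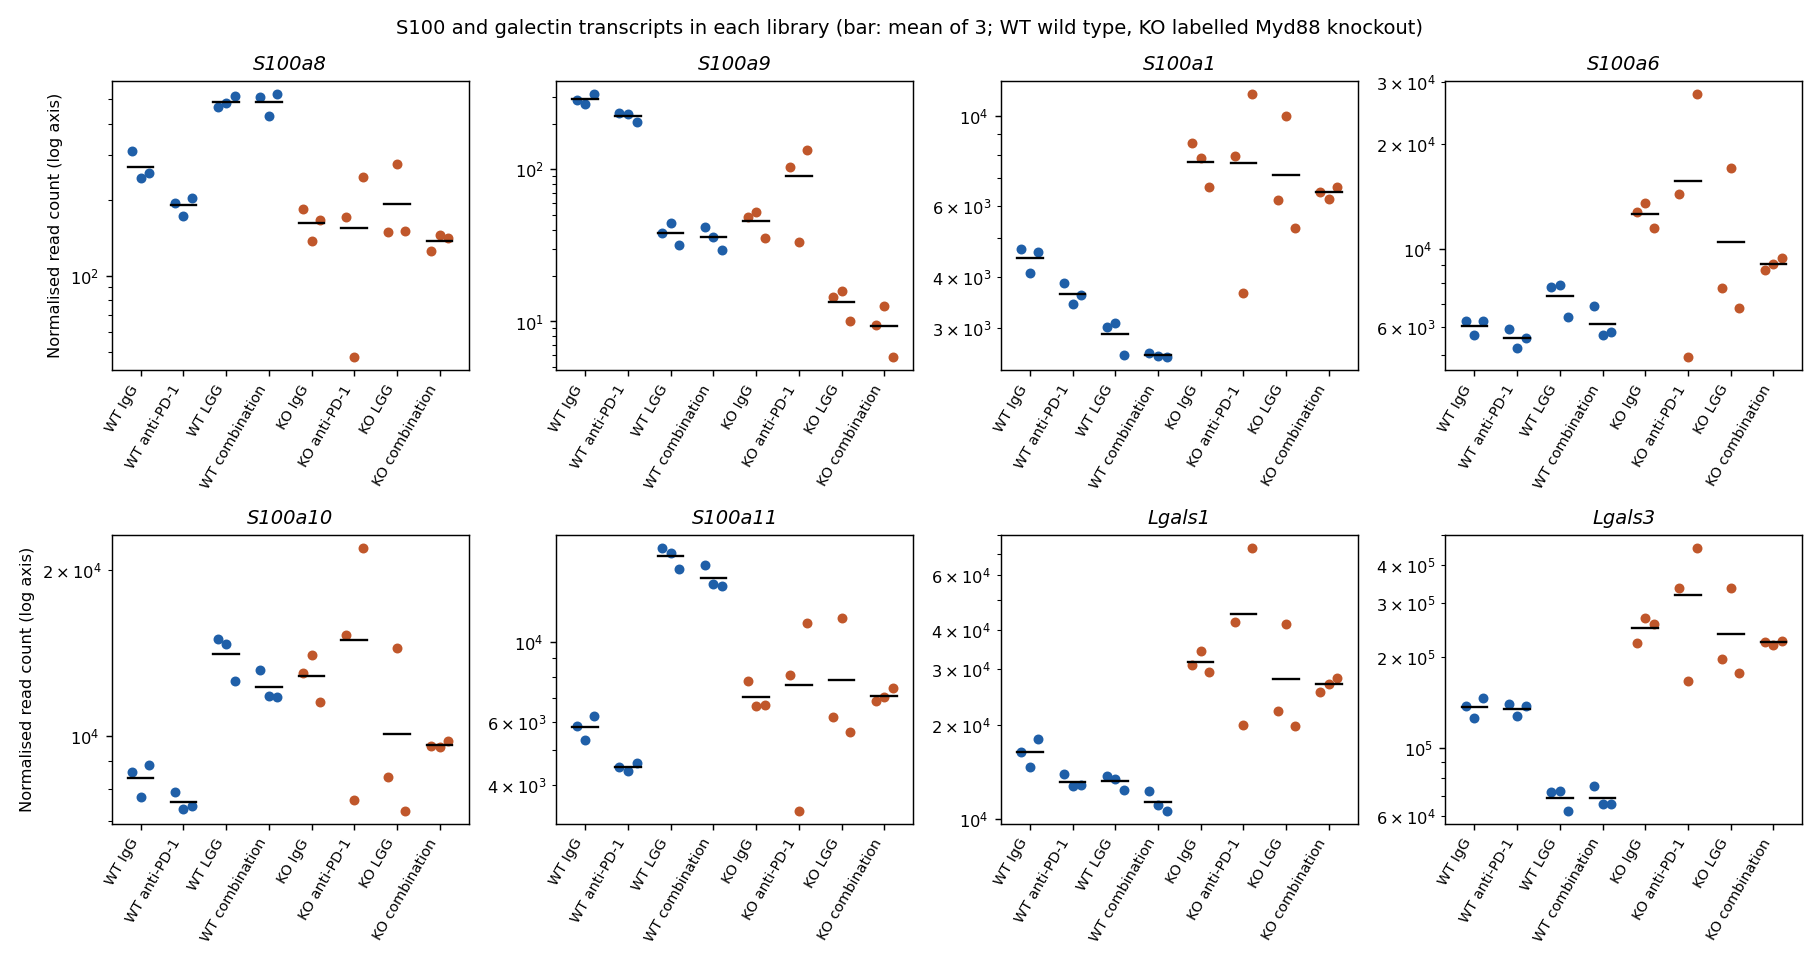
Normalised read count (log axis) of each of the 8 genes in the 24 libraries, by group, with a bar at the mean of 3 libraries. Wild-type libraries with LGG are low for S100a9 and Lgals3 and high for S100a11. The knockout anti-PD-1 and LGG groups have the widest spread, except that S100a9 spreads more in the knockout combination than in knockout LGG.

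The contrast that selected S100a9 set the combination against anti-PD-1 alone in knockout, and its values are a description without a test. S100a9 had 103, 33.5 and 133 normalised counts in the 3 anti-PD-1 libraries and 9.55, 12.6 and 5.86 in the 3 combination libraries. Every combination library lay below every anti-PD-1 library, with a log2 difference of -2.98. Whole reads behind these values were few, at 246 over the anti-PD-1 group and 28 over the combination group (exact Poisson 95% interval of the latter 18.6 to 40.5, for counting error only). With 1 library left out at a time the log2 difference ran from -3.57 to -2.59, and without the 3 libraries that stand apart it was -3.39. The other 7 genes overlapped between these groups. The share of all genes that overlapped here is not given, and S100a9 was selected on this contrast, so the contrast between it and the others is only a description. Myd88, which is not a member, did not overlap either. S100a8 had 170.2, 47.7 and 247 with anti-PD-1 and 125, 145 and 141 with the combination, a log2 difference of 0.11. For Lgals3 the values were 336737, 166823 and 454290.0 against 223828, 218544 and 225112, and the combination libraries fell inside the anti-PD-1 range. The log2 differences were -0.09 for S100a1, -0.46 for S100a6, -0.51 for S100a10, 0.07 for S100a11, -0.56 for Lgals1 and -0.40 for Lgals3. With 1 library left out at a time, those of S100a1, S100a6, S100a8 and S100a11 changed sign. S100a9 was also high in anti-PD-1 beside the other knockout groups, which had 48.9, 52.6 and 35.3 with IgG and 14.4, 16 and 10.0 with LGG. Anti-PD-1 replicate 2 lay below all 3 IgG libraries, and its 2 companions lay above them.

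LGG against IgG in wild type sets the bacterium, with no antibody recorded, against the control antibody where Myd88 was present. S100a9 fell and S100a11 rose, while S100a8, the calprotectin partner of S100a9, did not follow it down. Lgals3 fell and S100a10 rose. Of the 8 genes, 2 rose, where 27.4% of the 12749 genes tested rose, and 2 fell, where 28.2% fell, so the members' share was near that of all genes. The median log2 difference was -0.01 over the members and 0.00 over all genes. S100a9 had 285, 269 and 312 normalised counts with IgG and 37.9, 44.2 and 31.9 with LGG. All LGG libraries were below all IgG libraries, a log2 difference of -2.90 ± 0.36 (limma adjusted p = 8.69e-07). S100a8 had 312, 244 and 255 with IgG and 466, 484 and 515 with LGG. Its groups did not overlap, with the LGG libraries higher, but the difference of 0.86 ± 0.37 (limma adjusted p = 0.0583) did not pass. It did without the 3 libraries that stand apart, at 0.86 ± 0.12 (limma adjusted p = 1.25e-06).

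S100a11, which binds annexin A1, had 5825, 5338 and 6211 with IgG and 18274, 17720.2 and 15981 with LGG. Every LGG library lay far above every IgG library, and S100a11 rose by 1.58 ± 0.29 (limma adjusted p = 0.000119) on the log2 scale. S100a10 had 8615, 7765 and 8846 with IgG and 14998, 14683 and 12588 with LGG, with no overlap, and rose by 0.74 ± 0.26 (limma adjusted p = 0.0207). This call rests on few libraries: without wild-type IgG replicate 2, LGG replicate 1 or LGG replicate 2 the adjusted p was 0.0640, 0.0613 or 0.0563 (limma). For S100a1 the IgG libraries had 4698, 4093 and 4604 and the LGG libraries 3023, 3093 and 2574, lower and without overlap, at -0.63 ± 0.27 (limma adjusted p = 0.0554). S100a6 had 6229, 5684 and 6257 with IgG and 7796, 7901 and 6395 with LGG, at 0.28 ± 0.39 (limma adjusted p = 0.578), and the LGG libraries were the higher ones. Neither passed in limma. On whole reads, edgeR and DESeq2 each called 6 of 8, the 4 that limma called and also S100a8 (edgeR adjusted p = 0.0321, DESeq2 0.0205) and S100a1 (edgeR 0.0498, DESeq2 0.0432). The shares of all genes that edgeR and DESeq2 called are not given here, so this count has no all-gene reference.

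Among the galectins, Lgals3 had 137580.0, 125630.0 and 146481 with IgG and 71724, 72305 and 62561 with LGG. The LGG libraries were near 1 log2 unit lower and did not overlap the IgG libraries, a difference of -0.99 ± 0.26 (limma adjusted p = 0.00276). Lgals1 had 16322, 14679 and 18030.0 and 13756, 13469 and 12416, also without overlap, at -0.30 ± 0.31 (limma adjusted p = 0.422), which did not pass. All 8 genes passed without the 3 libraries that stand apart, 4 higher and 4 lower, where 73.4% of all genes were called in either direction.

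Markers of other cells moved in the same comparison. Of 10 macrophage markers, 8 fell, and their summed level was 99025 to 111902 normalised counts with IgG and 22246 to 23491 with LGG. Of 9 monocyte markers 2 rose and 4 fell, with sums of 705689 to 729136 and 102214 to 111556 that are mostly Chil3, a chitinase-like protein of alternatively activated myeloid cells. Of 17 neutrophil markers 15 were listed, 5 rose and 6 fell, and the sum was 7425 to 7622 with IgG and 8955 to 9870.3 with LGG. The sum joins genes that went opposite ways: Mmp8 had 3192 to 3273 with IgG and 925 to 959 with LGG, Lcn2 270.1 to 307 and 3415 to 4012, and Hdc 282 to 370.1 and 2453 to 2628. None of the 15 was at 0 in any group. The neutrophil surface gene Ly6g had 87.1 to 119.7 with IgG and 157 to 204 with LGG, while the granule gene Mpo had 45.7 to 67.8 and 16 to 22.6. Elane, another granule gene, was not analysed here. Dendritic cell markers had 7 risen and 4 fallen of 14, T cell markers 4 and 1 of 10, B cell markers 3 and 0 of 5, and NK cell markers 2 and 2 of 5. The part of these cells in the S100 and galectin differences was not tested.

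The combination against anti-PD-1 in wild type repeats the addition of LGG, now on top of the antibody, with 6 libraries that the previous comparison did not use. S100a11, S100a8 and S100a10 rose, and S100a9 and Lgals3 fell. Thus 3 of 8 rose beside 27.7% of all genes, and 2 of 8 fell beside 29.1%. S100a9 had 235, 229.8 and 204 with anti-PD-1 and 42, 36 and 29.6 with the combination. The groups were far apart, at -2.61 ± 0.36 (limma adjusted p = 3.19e-06). S100a8 had 194, 173 and 204 and 510.4, 432 and 524, higher with the combination in every library, at 1.35 ± 0.37 (limma adjusted p = 0.00418). S100a11 had 4478, 4375 and 4585 and 16331, 14514 and 14309, and it rose by 1.75 ± 0.29 (limma adjusted p = 3.83e-05). For S100a10 the values were 7915, 7378 and 7459.9 and 13167, 11816 and 11791, without overlap. The difference of 0.69 ± 0.26 (limma adjusted p = 0.0296) was lost when any 1 of these 6 libraries was left out (adjusted p 0.0513 to 0.0826, limma). Lgals3 had 140354, 127244 and 137477 and 75472, 65876 and 65770.3, again low in every library with LGG, at -0.97 ± 0.26 (limma adjusted p = 0.00308). The remaining differences were -0.50 ± 0.27 (limma adjusted p = 0.124) for S100a1, 0.13 ± 0.39 (limma adjusted p = 0.798) for S100a6 and -0.22 ± 0.31 (limma adjusted p = 0.575) for Lgals1. None of those passed. With the 3 libraries that stand apart left out, 7 of 8 passed, 3 higher and 4 lower, beside 74.5% of all genes. Macrophage markers summed to 93952 to 98519 with anti-PD-1 and 26427 to 28176 with the combination, with 8 of 10 fallen and 1 risen. Neutrophil markers summed to 7467 to 7716 and 9022 to 9979.8, with 5 risen and 5 fallen of 15. Of the others, 7 of 10 T cell markers and 5 of 5 B cell markers rose, while dendritic cell markers had 7 risen and 4 fallen of 14, NK cell markers 3 and 2 of 5, and monocyte markers 2 and 4 of 9. Their part in the differences was not tested.

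**Figure D2:**
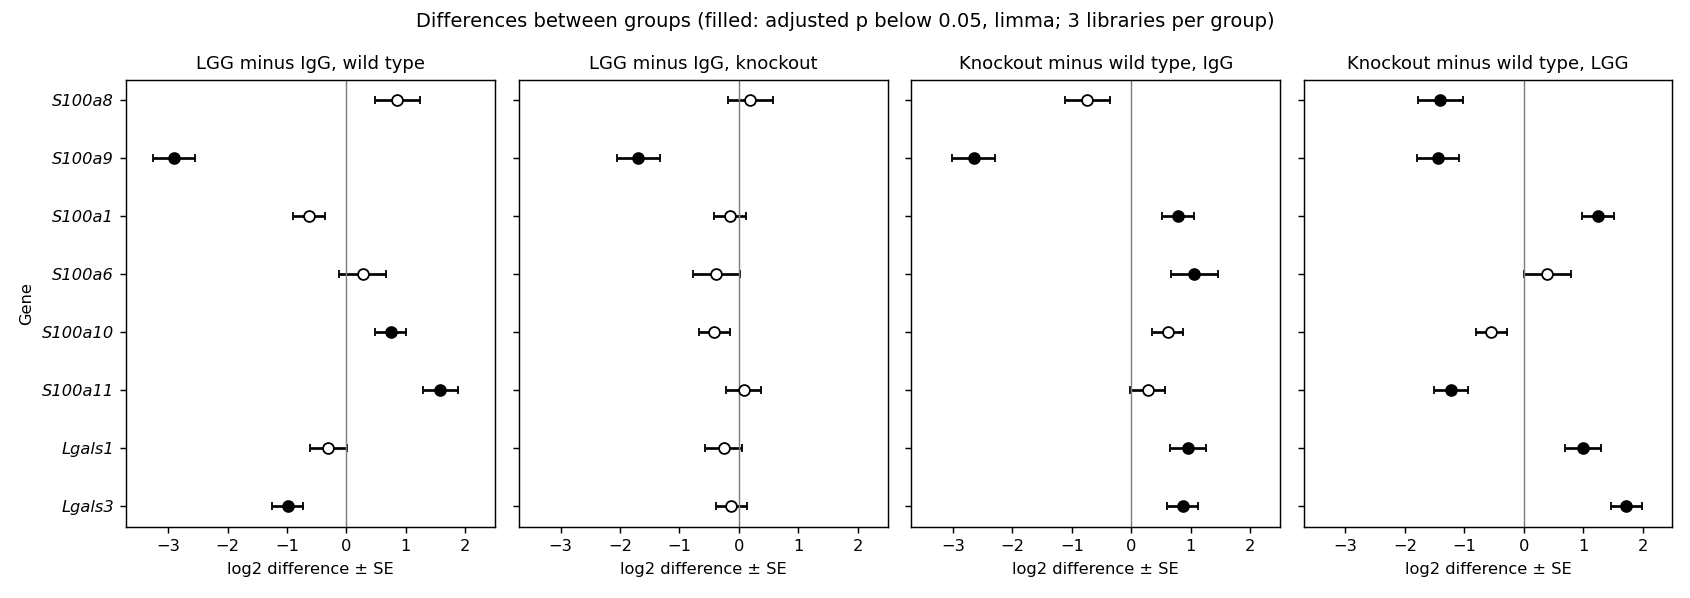
Log2 differences with standard errors of the 8 genes for LGG against IgG in each genotype and for knockout against wild type under IgG and under LGG, 3 libraries per group, with filled points where the limma adjusted p is below 0.05. S100a9 lies far to the left in the first panel and S100a11 to the right, and only S100a9 is filled in the second.

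Anti-PD-1 on its own gave no call among the members in wild type. Against IgG, 0 of 8 rose and 0 fell, beside 0.00784% and 0.0235% of all genes, and 0 had an unadjusted p under 0.05 (limma). On whole reads, edgeR and DESeq2 called 0 as well. The log2 differences lay between -0.50 and -0.01, so each member's mean was below its IgG level on this scale. S100a8, S100a9, S100a11, S100a1 and Lgals1 did not overlap between these groups, with the anti-PD-1 libraries lower, as the values already given for S100a8, S100a9 and S100a11 show. The share of all genes without overlap in this comparison is not given here. This separation therefore has no all-gene reference and is not read as an effect on the members. A fit that leaves out the 3 libraries that stand apart called 4 of 8 lower (S100a8, S100a11, Lgals1 and S100a1), beside 8.46% of all genes in either direction. Adding anti-PD-1 to LGG in wild type also gave 0 rises and 0 falls among 8, beside 0.0392% and 0.0235% of all genes, with 0 at an unadjusted p under 0.05 (limma) and 0 called by edgeR or DESeq2. The differences lay between -0.26 and 0.00, and they gave 0 calls without the 3 libraries too, beside 8.59%.

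In knockout, anti-PD-1 against IgG was tested for 7 genes, since S100a9 was chosen with the anti-PD-1 group. None rose or fell (0 of 7 each way, limma), beside 1.09% and 0.706% of all genes, with 0 at an unadjusted p under 0.05 and 0 called by edgeR or DESeq2. Differences ran from -0.34 to 0.33. Leaving out the 3 libraries, and so 2 of the 3 anti-PD-1 libraries, gave 2 of 7 called higher (Lgals3 and Lgals1), beside 8.94%. Leaving out anti-PD-1 replicate 2 alone gave 3, for which no share of all genes is given. The combination against LGG in knockout also had 0 of 7 in each direction (limma), beside 0.0941% and 0.180%, with 0 at an unadjusted p under 0.05 and 0 by edgeR or DESeq2. Differences there ran from -0.43 to 0.03, and without the 3 libraries 4 of 7 were called higher (Lgals1, S100a6, S100a11 and S100a10), beside 11.3%. S100a9, described only, differed by 0.77 between anti-PD-1 and IgG and by -0.52 between the combination and LGG on the log2 scale.

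LGG against IgG in knockout asks which of these changes occurred in mice labelled as lacking Myd88. S100a9 fell there as well, and no other member passed. Thus 0 of 8 rose beside 18.1% of all genes, and 1 of 8 fell beside 14.2%. With the 48.9, 52.6 and 35.3 and 14.4, 16 and 10.0 normalised counts given above, the S100a9 groups did not overlap and differed by -1.69 ± 0.36 (limma adjusted p = 0.00101). S100a11 had 7772, 6626 and 6689 with IgG and 6182, 11671 and 5627 with LGG. Its LGG replicate 2 lay above every IgG library and the others below them, at 0.08 ± 0.29 (limma adjusted p = 0.877). S100a10 had 13002, 14008 and 11552 and 8433, 14466 and 7324, with the same high replicate, at -0.41 ± 0.26 (limma adjusted p = 0.257). Without that library alone S100a10 was called lower, at -0.71 with an adjusted p of 0.0358 (limma). S100a8 had 183, 137 and 166 and 149, 276 and 151, overlapping, at 0.19 ± 0.37 (limma adjusted p = 0.75).

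The galectins overlapped between LGG and IgG in knockout. Lgals3 had 222342, 266982 and 255856 with IgG and 196744, 336517 and 176686 with LGG, at -0.13 ± 0.26 (limma adjusted p = 0.765). Lgals1 had 30983, 34225 and 29417 and 22172, 41739.7 and 19791, at -0.26 ± 0.31 (limma adjusted p = 0.585). In both genes LGG replicate 2 was the highest of the 6 libraries. S100a1 differed by -0.15 ± 0.27 (limma adjusted p = 0.73) and S100a6 by -0.38 ± 0.39 (limma adjusted p = 0.514). A fit without the 3 libraries that stand apart called 7 of 8 lower with LGG and 0 higher, beside 61.4% of all genes, and S100a8 was the member not called. Markers moved here too: all 10 T cell markers and all 5 listed NK cell markers rose, with T cell sums of 6108 to 6733 and 10856 to 13722 and NK cell sums of 3142 to 3649 and 10753 to 16259. Macrophage markers summed to 85255 to 89975 and 71168 to 87939.8, with 1 risen and 3 fallen of 10. Neutrophil markers summed to 7010.4 to 7302 and 8198 to 8434, with 8 risen and 3 fallen of 15. Ly6g had 4.56 to 11.7 with IgG and 30.6 to 60.1 with LGG. Also higher in every LGG library were Mmp8, with 4670 to 4980 and 5802 to 6457, and Hdc, with 41.7 to 59.0 and 132 to 164. The same held for Mmp9, with 303 to 318 and 532 to 558, and Csf3r, with 199 to 212 and 270 to 293. Lower with LGG were Lcn2, with 362 to 458 and 167 to 293, Padi4, with 528 to 574 and 271 to 319, and Cebpe, with 504 to 576 and 182 to 378. Dendritic cell markers had 8 risen and 0 fallen of 14, and all 5 listed B cell markers rose. The part of these cells was not tested.

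The difference between the genotypes in the effect of LGG was tested as an interaction, knockout minus wild type. S100a11 and S100a10, which rose with LGG in wild type, had lower LGG effects in the libraries labelled knockout, where the differences were 0.08 and -0.41 and neither passed. Thus 2 of 8 had a lower effect in knockout beside 15.4% of all genes, and 0 had a higher one beside 19.5%. The differences of effect were -1.50 ± 0.41 (limma adjusted p = 0.00767) for S100a11 and -1.15 ± 0.37 (limma adjusted p = 0.0192) for S100a10. Levels with IgG also bear on this. The S100a10 mean was 8409 in wild-type IgG, 12854 in knockout IgG and 14090 in wild-type LGG. For S100a11 these means were 5791, 7029 and 17325. The S100a10 call was lost without knockout LGG replicate 1 or 3, at an adjusted p of 0.0502 or 0.0591 (limma). On whole reads, edgeR and DESeq2 each called 3 of 8, these genes and Lgals3 (edgeR adjusted p = 0.0495, DESeq2 0.0320), again without an all-gene share to set beside the count. S100a9 fell in each genotype, and its smaller fall in knockout did not pass as a difference, at 1.21 ± 0.50 (limma adjusted p = 0.0709). For Lgals3 the difference was 0.86 ± 0.36 (limma adjusted p = 0.0731) and for S100a8 -0.66 ± 0.53 (limma adjusted p = 0.361). S100a1 differed by 0.48 ± 0.38 (limma adjusted p = 0.365), S100a6 by -0.66 ± 0.56 (limma adjusted p = 0.395) and Lgals1 by 0.05 ± 0.43 (limma adjusted p = 0.947). Leaving out 1 library at a time gave 1 call without knockout LGG replicate 1 and 4 without knockout anti-PD-1 replicate 2 or 3. No share of all genes is given for these counts. With all 3 libraries that stand apart left out, 7 of 8 were called, 2 higher and 5 lower, beside 62.8% of all genes. In that fit S100a9 differed by 1.08 ± 0.34 (limma adjusted p = 0.00933).

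Knockout against wild type under IgG compares the genotypes without LGG or anti-PD-1, beside the Y-linked difference given above. S100a9 was lower in knockout and both galectins were higher, as were S100a6 and S100a1. Thus 4 of 8 rose beside 19.1% of all genes, and 1 fell beside 20.0%. From the S100a9 values already given, all knockout libraries lay below all wild-type libraries, at -2.65 ± 0.36 (limma adjusted p = 6.68e-06). Lgals3 rose by 0.86 ± 0.26 (limma adjusted p = 0.0116) and Lgals1 by 0.95 ± 0.31 (limma adjusted p = 0.0187), and in both the knockout libraries stood wholly above wild type. S100a6 had 6229, 5684 and 6257 in wild type and 12807, 13503 and 11478 in knockout, without overlap. Its difference of 1.05 ± 0.39 (limma adjusted p = 0.0407) was lost when any 1 of the 6 libraries was left out (adjusted p 0.0630 to 0.105, limma). S100a1 had 4698, 4093 and 4604 and 8541, 7848 and 6675, higher in every knockout library, at 0.78 ± 0.27 (limma adjusted p = 0.0272). S100a1 was lost without wild-type IgG replicate 2 or 3 or knockout IgG replicate 1 or 2, and Lgals1 without replicate 2 of either genotype, with the highest adjusted p at 0.0934 and 0.0650 (limma). S100a10 differed by 0.61 ± 0.26 (limma adjusted p = 0.0716), S100a8 by -0.74 ± 0.37 (limma adjusted p = 0.126) and S100a11 by 0.28 ± 0.29 (limma adjusted p = 0.48), none of which passed. Leaving out 1 library at a time gave 2 to 7 calls, with 2 without wild-type IgG replicate 2 or knockout IgG replicate 2, and 3 without wild-type IgG replicate 3 or knockout IgG replicate 1. These counts too have no all-gene share beside them. Leaving out the 3 libraries that stand apart, all 8 were called, 6 higher and 2 lower, beside 63.8% of all genes.

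Other cell markers also differed between the genotypes under IgG. Of 15 neutrophil markers 1 was higher and 10 were lower in knockout, with sums of 7425 to 7622 and 7010.4 to 7302, and Ly6g had 87.1 to 119.7 in wild type and 4.56 to 11.7 in knockout. The chemokine receptor gene Cxcr2 had 367 to 422 and 78.9 to 95.8. Higher in every knockout library were Mmp8, the most abundant of the 15, with 3192 to 3273 and 4670 to 4980, and Lcn2, with 270.1 to 307 and 362 to 458. The neutrophil sum thus joins genes that went opposite ways here too. Of 10 T cell markers 9 were lower and 1 higher, and all 5 listed NK cell markers and all 5 listed B cell markers were lower. B cell markers summed to 254 to 271 and 33.9 to 38.9. The part of these cells in the S100a9 difference was not tested.

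Under LGG the genotypes differed in 6 of 8 members. Lgals3, S100a1 and Lgals1 were higher in knockout, 3 of 8 beside 28.2% of all genes, and S100a9, S100a8 and S100a11 were lower, 3 of 8 beside 27.0%. From the values above, Lgals3 stood wholly higher in knockout, at 1.72 ± 0.26 (limma adjusted p = 9.64e-06). Lgals1 rose by 1.00 ± 0.31 (limma adjusted p = 0.00929), a call lost without knockout LGG replicate 2 (adjusted p = 0.0702, limma). S100a1 had 3023, 3093 and 2574 in wild type and 6211, 9977 and 5280.2 in knockout, without overlap, at 1.25 ± 0.27 (limma adjusted p = 0.000527). S100a9 differed by -1.44 ± 0.36 (limma adjusted p = 0.00188), S100a8 by -1.40 ± 0.37 (limma adjusted p = 0.00333) and S100a11 by -1.22 ± 0.29 (limma adjusted p = 0.00142), and in each every knockout library was below every wild-type library. S100a10 and S100a6 overlapped, at -0.54 ± 0.26 (limma adjusted p = 0.0848) and 0.39 ± 0.39 (limma adjusted p = 0.421). Leaving out the 3 libraries, 7 of 8 were called, 3 higher and 4 lower, beside 71.3%. Of 10 macrophage markers 9 were higher in knockout, and of 15 neutrophil markers 3 were higher and 11 lower. Lower in knockout were also 9 of 10 T cell markers (1 higher), 5 of 5 B cell markers, 4 of 5 NK cell markers (1 higher) and 8 of 14 dendritic cell markers (3 higher). Monocyte markers had 4 higher and 3 lower of 9. Their part was not tested.

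S100a8 and S100a9 encode the subunits of 1 complex, and the ratio of their normalised counts was taken within each library, which removes scaling between libraries. In wild type the ratio was 1.10, 0.906 and 0.819 with IgG and 0.824, 0.752 and 1.00 with anti-PD-1. With LGG it was 12.3, 11 and 16.1, and with the combination 12.2, 12 and 17.7. Both groups with LGG thus lay wholly above both groups without it. In knockout the ratio was 3.75, 2.60 and 4.69 with IgG and 10.4, 17.3 and 15 with LGG, again without overlap. The mean log2 ratio differed by 3.79 between LGG and IgG in wild type, by 1.96 in knockout and by 1.94 between knockout and wild type under IgG. Each of these 3 differences had p = 0.1 in a two-sided exact permutation test (0.1 after adjustment over the 3), the smallest that 3 libraries against 3 can give. The knockout anti-PD-1 and combination ratios, 1.65, 1.42 and 1.85 and 13.1, 11.5 and 24, belong to the contrast that selected S100a9 and are a description. In knockout, S100a9 had 16, 13 and 10 reads with LGG and 10, 13 and 5 with the combination. Ratios in those libraries are imprecise. In knockout anti-PD-1 the ratio kept within a narrow range although both genes varied several-fold between those libraries.

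**Figure D3:**
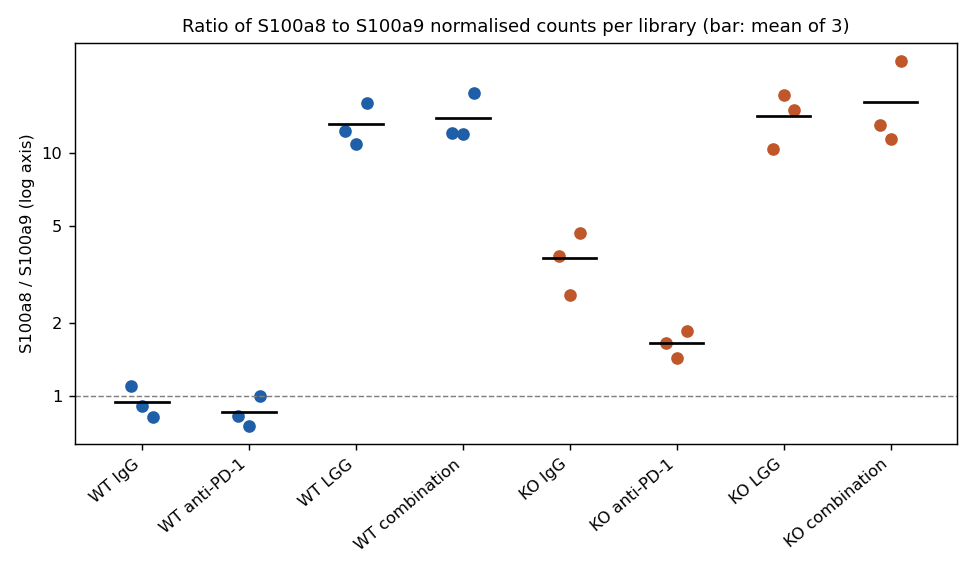
Ratio of S100a8 to S100a9 normalised counts (log axis) in each of the 24 libraries, with a bar at the mean of 3 and a dashed line at 1. The 12 libraries with LGG lie between 10.4 and 24, above all 12 libraries without it. The knockout anti-PD-1 and combination libraries selected S100a9, so their separation is a description. Ratios in knockout with LGG rest on few S100a9 reads.

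The members varied together among the libraries that stand apart. In knockout anti-PD-1 all 8 were highest in replicate 3, next in replicate 1 and lowest in replicate 2, an order found in 34.8% of the genes tested. In knockout LGG all 8 were highest in replicate 2, as were 43.7% of genes. For S100a9 that rank is imprecise: replicates 1, 2 and 3 had 16, 13 and 10 reads, and replicate 2 was 1.31 times the mean of the others in normalised counts. From replicate 2 to replicate 3 of knockout anti-PD-1, the normalised count differed by a factor of 5.60 for S100a6 and 5.18 for S100a8, and by 2.72 for Lgals3, the least of the 8. In the same libraries the dendritic cell markers summed to 304782, 200552 and 444587, and the macrophage markers to 98209, 80308 and 119309. Neutrophil markers summed to 6933, 6394 and 7532. These 3 sums were highest in replicate 3 and lowest in replicate 2. Other lists did not share that order: monocyte markers summed to 2210960.0, 1369340.0 and 1973230.0, highest in replicate 1, and T cell markers to 5553, 6098 and 4803, highest in replicate 2 and lowest in replicate 3. In knockout LGG the dendritic cell markers summed to 398348 in replicate 2 against 275995 and 253770.0, and macrophage and monocyte markers were also highest there. Neutrophil and T cell markers were lowest there, at 8198 against 8347 and 8434 and at 10856 against 12681 and 13722. Their part in the members' spread was not tested.

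**Figure D4:**
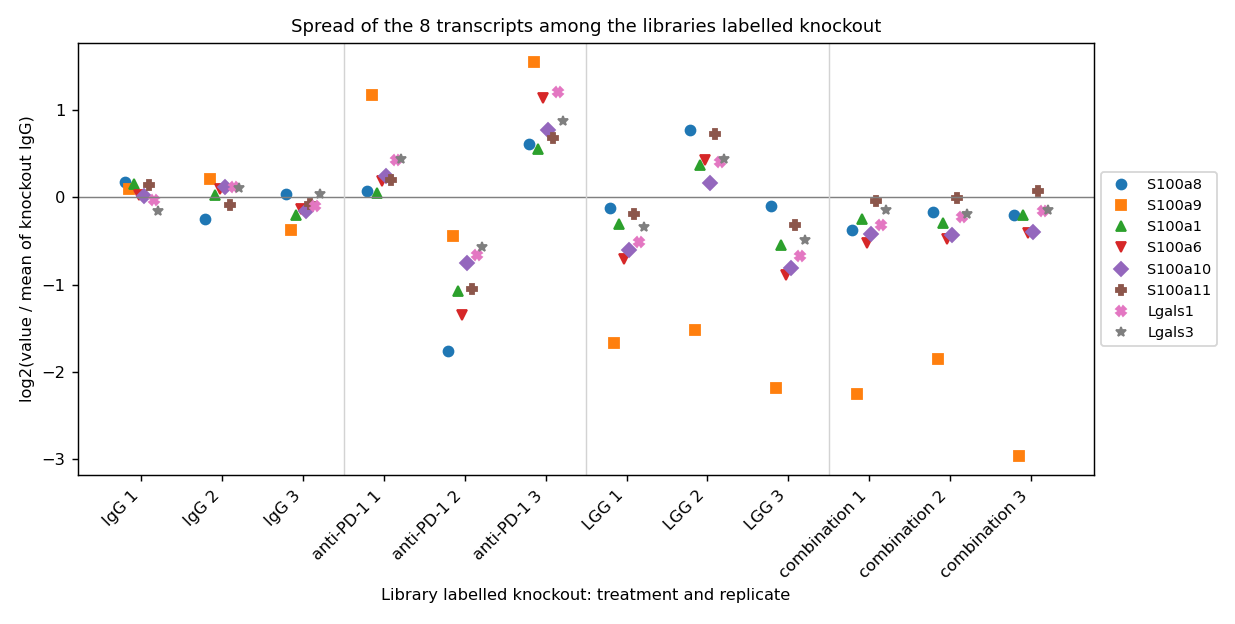
Log2 of each gene's value over its mean in knockout IgG, for the 12 libraries labelled knockout. Beside the other replicates of their group, all 8 genes are low in anti-PD-1 replicate 2 and high in anti-PD-1 replicate 3. In LGG replicate 2 the genes are high as well, but S100a9 only slightly and on few reads. S100a9 lies lowest in every library with LGG.

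Further genes of both families and their partners came from lists chosen with earlier results known. Of 9 other S100 genes 1 was listed, S100a13, and it passed in no comparison of limma. Of 8 other galectin genes 4 were listed. With LGG against IgG in wild type 1 of these 4 fell and 0 rose, beside 28.2% and 27.4% of all genes. The gene that fell was Lgals8, a galectin with a pair of sugar-binding domains. It went from 3015 ± 162 to 1939 ± 36 normalised counts (SD, n = 3), a log2 difference of -0.63 ± 0.11 (limma adjusted p = 8.5e-05). Lgals9, another galectin of that build, rose with the combination against anti-PD-1 in wild type. It went from 4008 ± 20.6 to 5417 ± 269 normalised counts (SD, n = 3), a log2 difference of 0.43 ± 0.08 (limma adjusted p = 0.000157). In the same comparison the Lgals8 difference was -0.61 ± 0.11 (limma adjusted p = 0.00012), a fall. These were 1 rise and 1 fall of 4, beside 27.7% and 29.1% of all genes. Against LGG alone the combination's Lgals9 difference was 0.18 ± 0.08 (limma adjusted p = 0.755) and did not pass. With LGG against IgG in knockout 1 of 4 rose beside 18.1% of all genes, and 0 fell beside 14.2%. The rise was that of Lgals9, by 0.24 ± 0.08 (limma adjusted p = 0.033). The genotypes differed in the Lgals8 effect by 0.87 ± 0.16 (limma adjusted p = 0.000261). Under IgG, Lgalsl was lower in knockout, with a difference of -1.23 ± 0.19 (limma adjusted p = 2.58e-05), and Lgals8 was higher by 0.38 ± 0.11 (limma adjusted p = 0.0113).

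Of 19 partners and receptors, all were listed and tested. With LGG in wild type 6 rose and 4 fell, with a median log2 difference of 0.20, beside the 27.4% and 28.2% of all genes that rose and fell. Cd14, a co-receptor of Tlr4, went from 2719 ± 123 to 28414 ± 2006 normalised counts (SD, n = 3), a log2 difference of 3.38 ± 0.12 (limma adjusted p = 8.17e-15). Tlr4, through which extracellular S100a8 and S100a9 can signal, went from 2655 ± 172 to 732 ± 60.8 normalised counts (SD, n = 3), a log2 difference of -1.86 ± 0.17 (limma adjusted p = 1.41e-08). Alcam, a cell adhesion protein, rose by 1.03 ± 0.11 (limma adjusted p = 7.85e-08). Anxa1 encodes the partner of S100a11, and it fell where S100a11 rose, with a difference of -0.80 ± 0.09 (limma adjusted p = 1.45e-07). Anxa2 encodes the partner of S100a10. It was named for that link and not by the rule for named genes, after its values were seen, and it went from 11369 ± 867 to 29539 ± 2245 normalised counts (SD, n = 3), a log2 difference of 1.38 ± 0.22 (limma adjusted p = 2.14e-05). In knockout 3 rose and 3 fell with LGG, beside 18.1% and 14.2% of all genes, Lgals3bp (a secreted galectin-3 ligand) by 0.64 ± 0.06 (limma adjusted p = 1.2e-07) and Lag3 (a checkpoint receptor of T cells) by 2.18 ± 0.28 (limma adjusted p = 4.37e-06) among the rises. Anxa2 differed by -0.01 ± 0.22 (limma adjusted p = 0.971) there and did not pass. The effect of LGG differed between the genotypes in 9 of 19, 5 with a higher and 4 with a lower effect in knockout, beside 19.5% and 15.4% of all genes. Those differences were -2.88 ± 0.17 (limma adjusted p = 9.81e-11) for Cd14, -0.88 ± 0.15 (limma adjusted p = 0.000123) for Alcam, 0.77 ± 0.12 (limma adjusted p = 5.83e-05) for Anxa1 and 1.22 ± 0.24 (limma adjusted p = 0.000478) for Tlr4. Under IgG 9 were higher and 2 lower in knockout, beside 19.1% and 20.0% of all genes. Anxa1 was higher by 1.10 ± 0.09 (limma adjusted p = 4.35e-09), and Spn, the sialophorin CD43, was lower, with a difference of -1.30 ± 0.06 (limma adjusted p = 4.48e-12).

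The genes whose log2 values followed a member most closely were sought over 24 libraries among 11081 genes above a mean level of 50. The libraries share groups, so Pearson's r is a description here. For S100a8 these were Espn (r = 0.94), Rogdi (0.93) and Pilrb1 (0.93), and for S100a9 Csk (0.96), Mcm6 (0.96) and Clec4a1 (0.95). For Lgals1 they were Renbp, Mtln and Fuca1 (each 0.98), and for Lgals3 Flywch2, Rnh1 and Ctsd (each 0.99). Among the members, Lgals1 and Lgals3 had r = 0.93, S100a8 and S100a11 0.81, S100a10 and S100a11 0.76, and S100a8 and S100a9 0.17. S100a9 had an absolute r of at most 0.28 with any other member. Finally, 1 of 7 fibroblast markers (Pdgfrb, 50.8 to 68.7 in wild-type IgG) and 2 of 5 epithelial markers were listed, the latter Cdh1 and Epcam, with Epcam at 17.4 to 37.3 in that group. With LGG in wild type Pdgfrb rose, and 1 of the 2 epithelial markers fell.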

How the data were processed

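RNA sequencing libraries of CD11c-enriched cells were compared. STAR 2.4.0, HTSeq 0.6.1, DESeq2 (no version given in the sources used here) and build mm10 are named in the labels, per the submitters' processing notes, without their roles. The authors deposited 1 table of normalised signal per gene, reads divided by 1 scaling factor per library. Each library's values are multiples of 1 step, which returned whole reads for 100% of values within 0.001. KO LGG replicate 3 has a step near 1 and was treated likewise. Reads over listed genes were 24531528 to 49272593 per library.

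A mean of 10 or more over all libraries left 12749 of 12767 genes, whose log2(value + 1) was modelled in limma 3.58.1 (R 4.3.3) with 1 mean for each group over all 24 libraries and moderated, trended, robust variances. Adjustment of the two-sided p-values over all genes tested followed Benjamini and Hochberg, and a call means an adjusted p below 0.05. A log2 difference is on the log2(value + 1) scale, which understates low genes. Errors are standard errors after a difference and SD after a mean. The script was tested on simulated data.

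The members and gene lists were chosen with earlier results of these data known. Named genes are all members, up to 4 per comparison with the smallest p from the lists of other S100 genes, other galectins, and partners and receptors, and up to 3 of the most abundant in each marker list (dendritic cell, neutrophil, monocyte, macrophage, T cell, B cell, NK cell, fibroblast, epithelial). The Y-linked list, and some marker genes named beyond those 3, were chosen after their values were seen. Gene coordinates and exon lengths are from GENCODE M21 (GRCm38), to which 12765 genes matched by identifier, and promoter sequences from RefSeq (GRCm38.p6).

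Alternatives were DESeq2 1.42.0 and edgeR 4.0.16 on the recovered reads, TMM scaling, a pseudocount of 8, no filter, a fit of only the groups compared, array weights, the replicate number as a block, leaving out the 3 libraries that stand apart, and leaving out each library in turn.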

Additional observations from a re-analysis of the deposited data

Results flagged for a closer look

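The effect of LGG differed between the genotypes for 2 of the 8 genes by a test of the difference itself (limma interaction, knockout minus wild type), beside 19.5% of all genes with a higher and 15.4% with a lower effect in knockout. For S100a11 the difference was -1.50 ± 0.41 on the log2 scale (limma adjusted p = 0.00767), and for S100a10 it was -1.15 ± 0.37 (limma adjusted p = 0.0192). The S100a10 call was lost without knockout LGG replicate 1 or 3, at a limma adjusted p of 0.0502 or 0.0591. In wild type both were higher with LGG in all 3 libraries. For S100a10 the knockout IgG mean of 12854 was already nearer to the wild-type LGG mean of 14090 than to the wild-type IgG mean of 8409. In knockout LGG replicate 2 was the highest of 3 for both genes. Without the 3 libraries that stand apart the differences were -1.83 and -1.45.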

How the results depend on the processing

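Counts of members called (limma) changed most with settings that remove or down-weight the libraries that stand apart. Fitting only the libraries compared gave 8 calls for LGG against IgG in wild type, 5 for anti-PD-1 against IgG in wild type, 8 for knockout against wild type under IgG and 4 for the genotype difference of the LGG effect, where 72.1%, 13.8%, 62.2% and 38.2% of all genes were called. Array weights gave 8, 4, 8 and 6 for these (76.7%, 24%, 68.8% and 70.2% of all genes), 5 for the combination against LGG in wild type (36.7%), and in knockout 7 for LGG against IgG (71.1%), 2 for anti-PD-1 against IgG (23.9%) and 4 for the combination against LGG (28.7%). Leaving out the 3 libraries gave 8, 4, 8 and 7 for the first 4, and 7, 2 and 4 for the same 3 comparisons in knockout, with the all-gene shares given beside each result. Calls over all genes rose with the members' calls under these settings. Array weights and that setting turned the LGG difference in knockout to -0.17 and -0.10 for S100a8 and to -0.25 and -0.25 for S100a11, and the genotype difference of Lgals1 to -0.23 and -0.28. The second also turned S100a6 in knockout against wild type under LGG to -0.015. With all libraries none of these 4 was called, while without the 3 libraries S100a11 and Lgals1 were. The cause was not tested.

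With 1 library left out at a time the calls ranged from 3 to 6 for LGG against IgG and from 4 to 6 for the combination against anti-PD-1 in wild type, and stayed at 0 for the other 2 comparisons there. In knockout they ranged from 1 to 2 for LGG against IgG and from 0 to 3 for anti-PD-1 against IgG, and stayed at 0 for the combination against LGG. They ranged from 2 to 7 for knockout against wild type under IgG, from 6 to 7 under LGG and from 1 to 4 for the genotype difference. The shares of all genes called with 1 library left out are not given here, so these ranges have no all-gene reference. Among the tested comparisons given gene by gene, the sign changed for LGG against IgG in knockout in S100a1 (-0.42 to 0.042), S100a8 (-0.10 to 0.34), S100a11 (-0.25 to 0.28) and Lgals3 (-0.41 to 0.055). It also changed for S100a6 between genotypes under LGG (-0.015 to 0.65) and for Lgals1 in the genotype difference (-0.28 to 0.25). In the described contrast of the combination against anti-PD-1 in knockout, it changed for S100a1 (-0.55 to 0.26), S100a6 (-1.13 to 0.11), S100a8 (-0.58 to 0.59) and S100a11 (-0.43 to 0.44). For anti-PD-1 against IgG and the combination against LGG in each genotype, single-gene values under other settings are given only as counts, a choice made after they had been computed. Of 720 such values with 1 library left out, 28 changed sign and 3 were called, and of 270 under other settings 27 changed sign and 30 were called.

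Replicate numbers were not treated as pairing the samples. Of 84 same-numbered pairs, 22 had a correlation above 0.1 (range -0.83 to 0.56), and 10 of 24 libraries correlated best with their own number. No such rate was computed for differently numbered pairs, so this check cannot exclude pairing by number. The replicate block left 47 of 48 single-gene results on the same side of the threshold, and S100a6 between genotypes under IgG was no longer called. S100a9 rests on few reads in knockout with LGG, which limits its precision there.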
